A study of Mus musculus with 18 samples.

Results

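The 1137 peaks described here lie at the promoters of protein-coding genes on the autosomes and carried CTCF but little RNA polymerase II (Pol II) in the adult mouse heart. They were chosen by their own ChIP-seq values: a length under 5000 nt, a mean Pol II value below 20 over 6 libraries and a mean CTCF value of at least 50 over 6 libraries. They make up 4.42% of the 25702 autosomal coding promoter peaks of that length, from 101256 peaks in all, and belong to 1106 genes. Of these genes, 29 have 2 such peaks and 1 has 3. A promoter peak is one assigned to the nearest gene with a start within about 5000 nt, so it need not cover the start itself, and the centres of these peaks lay 4 to 5791 nt from it. Each such peak is called a member below.

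ChIP-seq was done on ventricles of adult mice, with chromatin prepared from 2 hearts. The genotypes were WT, *Trdn-as* KO and *Mettl3* KO. *Trdn-as* KO mice are homozygous for a polyadenylation site inserted by Cas9 into the first exon of *Trdn-as*, the antisense transcript of the triadin gene, and descend from an edited embryonic stem cell clone backcrossed to C57BL/6. *Mettl3* KO mice carry the genotype Mettl3lox/lox:alphaMHC-MerCreMerpos: the alpha myosin heavy chain promoter drives a Cre in cardiomyocytes that tamoxifen, given on 7 days at 10 to 16 weeks of age, activates. The other cells of the ventricle thus keep the gene for this m6A methyltransferase. There were 2 libraries per genotype for Pol II, 2 for CTCF and 1 for IgG. The labels name the controls WT for both lines, whereas the methods describe Mettl3 lox/lox mice without Cre, given tamoxifen as well, for the *Mettl3* line. No source ties the 2 libraries of a group to separate hearts, so p-values measure the spread between libraries, which may be technical.

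CTCF is a zinc finger protein that binds a long DNA motif, stops cohesin on the chromosome and thereby sets the ends of chromatin loops and domains. It often binds close to gene starts, where it can separate a promoter from neighbouring enhancers or bring them together. Pol II at a promoter marks a gene that is transcribed or held paused, so a promoter peak with CTCF alone shows factor binding with little polymerase under the same region. In whole ventricle, fewer cells with the factor and less of the factor in each cell cannot be told apart.

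The core of the CTCF motif, spelled CCA, any 2 bases, AG, any 2 bases and GGC, was searched on both strands in the RefSeq promoter windows of GRCm38.p6, which run from 250 bases before to 50 bases after a gene start. Of the 92 members that cover their annotated start, 61 had a window by gene symbol, which is 66.3% and too few for a share over the group. A match was found in 8 of these genes, and 2.43% of all 32851 windows hold one. The former counts genes chosen for high CTCF, some with several windows, and the latter counts single windows, so no excess is read from them. The 60-base stretches of these 8 genes are shown because they place the motif next to the start of genes with little Pol II. They read 5′ to 3′ on the strand of the gene, with the match in capitals, and were chosen after their values were seen.
C1rb (chr6:124570196-124570255, plus strand): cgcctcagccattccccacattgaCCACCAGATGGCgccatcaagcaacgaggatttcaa
Mgat5b (chr11:116918769-116918828, plus strand): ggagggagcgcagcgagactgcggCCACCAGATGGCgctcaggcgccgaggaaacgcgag
Cldn1 (chr16:26371873-26371932, minus strand): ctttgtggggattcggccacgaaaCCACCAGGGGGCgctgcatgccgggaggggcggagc
Pcp4 (chr16:96467546-96467605, plus strand): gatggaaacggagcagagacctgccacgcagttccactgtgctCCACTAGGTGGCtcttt
Ttc34 (chr4:154837348-154837407, plus strand): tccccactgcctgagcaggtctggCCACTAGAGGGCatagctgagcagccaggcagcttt
Srrm3 (chr5:135817969-135818028, plus strand): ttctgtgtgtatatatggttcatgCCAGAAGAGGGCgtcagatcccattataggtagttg
Kcnk13 (chr12:99964428-99964487, plus strand): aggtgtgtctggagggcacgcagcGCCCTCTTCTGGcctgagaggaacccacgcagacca
Rgs9 (chr11:109298235-109298294, minus strand): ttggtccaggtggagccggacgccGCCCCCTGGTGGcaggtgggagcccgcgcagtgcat

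*C1rb* and *Mgat5b* hold the same 12 letters, and *Kcnk13* and *Rgs9* hold the motif on the opposite strand of the gene. *Srrm3*, a splicing factor of neurons, had the highest mean CTCF value of these genes at 113.3. *Cldn1*, a claudin of epithelial tight junctions, had the lowest at 54.2. The matches began between 210 bases before the start in *C1rb* and 17 bases before it in *Pcp4*. The peaks are on GRCm39 and the windows on GRCm38, so a match is a description of the RefSeq window and was not placed inside a peak. The windows of *Ccdc110*, *Otos*, *Grik4* and *Spata20*, which also cover their start and are described below, hold no match to these letters.

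The values are normalised read counts per peak, and CTCF, Pol II and IgG are not on a common scale. Over members, the mean CTCF value had a median of 78.3 and ran from 50 to 187.5, and the mean Pol II value had a median of 10.2 and ran from 1.5 to 19.8. These levels chose the members and are a description. By library, the median member held a CTCF value of 81 and 72 for WT, 83 and 85 for *Trdn-as* KO, and 74 and 74 for *Mettl3* KO. The Pol II medians were 10 and 9 for WT, 10 and 12 for *Trdn-as* KO, and 10 and 8 for *Mettl3* KO. The 6 CTCF libraries were close to each other at single members: the highest was 1.29 times the lowest at the median member, and at no member was it over 2 times the lowest. CTCF reached 50 in every library at 967 members.

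Pol II at the members rested on few reads. From the spacing of the deposited values, 1 read was worth between 0.945 and 2.04 in the Pol II libraries, so the median member held between 5 and 9.53 reads per library. At 102 members at least 1 Pol II library was at 0, and at 347 members at least 1 library was above 20, up to 43. The mean IgG value of a member had a median of 22.7, and with 1 read worth 2.55 to 6.57 the median member held between 3.05 and 9.82 reads per IgG library. Values in all peaks of a library summed to between 2871381 and 3106550 for CTCF, between 4046774 and 5185209 for Pol II and between 1795351 and 2070332 for IgG. Members took 2.98 to 3.21% of the CTCF sum and 0.207 to 0.361% of the Pol II sum. The 5 *Trdn-as* KO libraries held 0 on chromosome Y, against 50 to 326 in the others, and sex was not part of the study design.

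**Figure D1:**
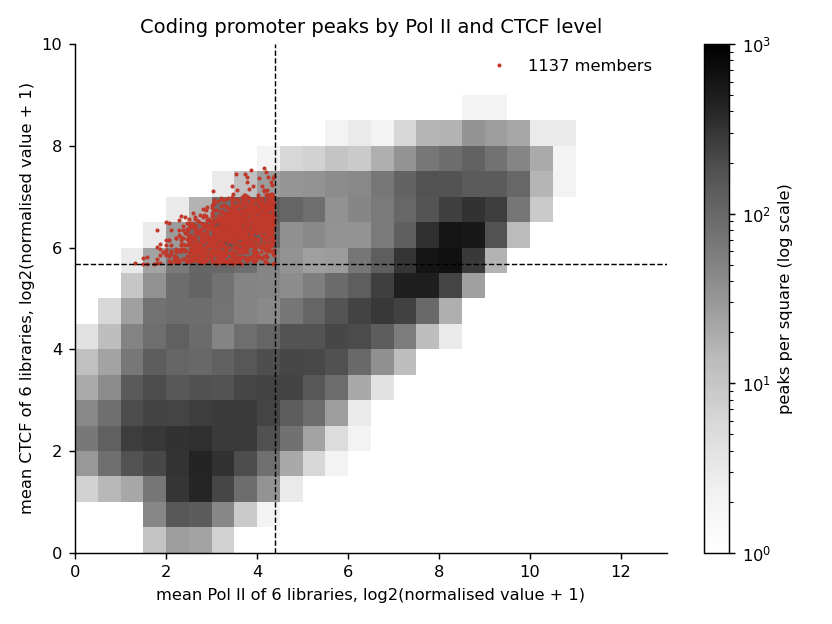
Mean Pol II (x) and mean CTCF (y) of the 25702 autosomal coding promoter peaks, both as log2 of the normalised value plus 1, with the number of peaks per square in grey on a log scale, the 1137 members as red points and the thresholds of 20 and 50 as dashed lines. The members fill the upper left corner up to both lines, and peaks continue on the other side of each line.

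Neither threshold falls in a gap. The members just inside the CTCF threshold were at *Cdh26* and *Kcnh1*, both with a mean of 50, and the peaks just outside it were at *Iah1* with 49.8 and *Nab2* with 49.7. Just inside the Pol II threshold stood *Ccn5* and *Pcdhga10*, both with a mean of 19.8, and just outside it *Pga5* and *Lsm2*, both with 20. A mean Pol II value of at least 15 was held by 239 members, and a mean CTCF value under 60 by 223.

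The name "coding promoters" holds for the annotation but only for a few members at the start itself. The annotated start lay inside the peak at 92 members, 8.09% of them, against 38.8% of all coding promoter peaks, 4.94% of those with little of either factor and 83.5% of the 6836 with both Pol II and CTCF. The median distance from peak centre to start was 2961 nt for members, 2191 nt for peaks with little of either and 266 nt for peaks with both. Of the 1045 members off the start, 673 lay upstream, which is 64.4%, against 41.3% of the 1126 off-start peaks with both, 30.3% of those with Pol II and little CTCF and 41.3% of those with little of either. From 4000 nt outward lay 314 members. Members thus stood mostly as separate CTCF sites within a few kilobases of a start, more often before the gene than inside it. This is in part by construction, since the Pol II ceiling leaves out CTCF peaks over starts and in genes where Pol II is high. Off the start, 70.3% of the 548 members whose gene had a Pol II peak elsewhere lay upstream. It was 60.4% of the 222 whose gene had other peaks with little Pol II, and 56% of the 275 whose gene had no peak other than members.

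**Figure D2:**
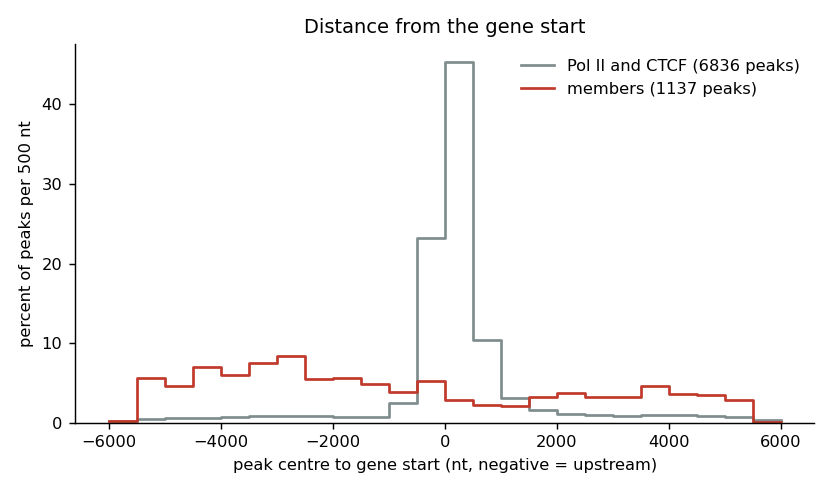
Percent of peaks in each 500-nt step of the distance between peak centre and gene start (x, negative upstream), for members (red) and for coding promoter peaks with both Pol II and CTCF (grey). Members spread over the whole window with more upstream, while the peaks with both crowd within 1000 nt of the start.

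Little Pol II under the peak did not mean little Pol II at the gene. Another peak of the same gene held a mean Pol II value of at least 20 at 546 of the 1106 member genes, 49.4% of them. A further 246 genes had other peaks that were not members, each with little Pol II, and 314 genes had no peak in the table other than members. The share also differed by distance, in part by construction, since a member over the start had to have little Pol II at the start itself. A Pol II peak elsewhere was annotated to the gene of 7 of the 92 members over the start, of 57.2% of the members upstream and of 43.8% of those downstream. Among members centred 500 to 1000 nt from the start it was 5 of 70, and among those 1000 to 2000 nt away 91 of 180. The description of the genes as inactive is thus at odds with the Pol II peaks of 546 genes.

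The 5 member genes with the most Pol II at another peak act in protein folding, lipid uptake, insulin signalling, calcium handling and transcription. *Dnajb5*, which encodes a heat shock protein 40 co-chaperone, had a member 3782 nt upstream (chr4:42945448-42946616) with CTCF values of 93 and 87 for WT, 108 and 100 for *Trdn-as* KO, and 85 and 93 for *Mettl3* KO. The gene's main peak held Pol II values of 1505 and 1476 for WT, 1458 and 1407 for *Trdn-as* KO, and 1389 and 1388 for *Mettl3* KO, whereas the member held 4 to 33. *Lpl*, the lipoprotein lipase that releases fatty acids from circulating lipoproteins, had a member 4297 nt upstream with CTCF of 63 and 58 in WT and a mean Pol II value of 10.5, beside a peak with a mean of 1171. All CTCF libraries of the *Lpl* member lay between 49 and 63, near the threshold. *Irs1*, an adaptor of insulin signalling, had a member 2904 nt upstream with a mean CTCF value of 64.7, *Mcur1*, a regulator of mitochondrial calcium uptake, one 5297 nt upstream with 94, and *Lmo4*, a LIM domain transcription cofactor, one 2464 nt upstream with 75. Their main peaks had mean Pol II values of 907, 782 and 778.

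The ventricle was recognisable in the table: 9 of the 10 cardiomyocyte markers had a peak, with Pol II from 121 to 10426 at the best peak of each, and all 6 fibroblast markers and the 5 endothelial markers with a peak held 145.5 or more. Of the 8 neuron markers, 6 had a peak and 2 a Pol II value of at least 20, the highest at 49.3, and of the 7 T and B cell markers 1 had a peak, at 19.7. A value of at least 20 was also reached by 1 of the 3 macrophage markers with a peak (96.5), the 1 hepatocyte marker with a peak (27.2), 2 of the 3 erythroid markers (up to 73.7) and 1 of the 2 germ cell markers (48.3). Members were also found at marker genes. *Ckm*, the muscle creatine kinase, had one 905 nt downstream of the start with a mean CTCF of 111.3 and Pol II of 18 and 9 in WT, while its most occupied peak, centred 7223 nt from the start, had a mean Pol II of 702. *Col1a1*, the fibroblast collagen, had one 3190 nt downstream with CTCF of 79.7, and a peak nearer the start with 247.5 Pol II. *Dazl*, an RNA-binding protein of germ cells, had one with 52.3 CTCF and another peak with 48.3 Pol II.

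The 92 members over the start held CTCF and little Pol II at the annotated start. Each gene has 1 annotated start here, which need not be the start used in the heart: the most occupied peak of *Ckm* lay 7223 nt from it. Their mean Pol II ran from 3.33 to 19.8 with a median of 12.2 per kb, above the 10.6 per kb of all members, and 50 of the genes had no peak other than members. They were 14.3% of the 644 coding promoter peaks that covered a start with little Pol II, and the members off the start were 8.96% of the 11658 corresponding peaks. The genes described next were named after their values were seen and stand for no theme of the 92, which also include *Eci2* and *Bdh2*, enzymes of fatty acid and ketone metabolism, and *Ltbp2*, a matrix protein. *Grik4*, a kainate receptor subunit, held CTCF values of 128 and 116 for WT, 127 and 138 for *Trdn-as* KO, and 129 and 120 for *Mettl3* KO with Pol II between 2 and 16. *Lrfn2*, a synaptic adhesion protein, held 132 and 125, 151 and 153, and 146 and 128 in the same order, with Pol II between 11 and 26. The CTCF ranges of the genotypes overlapped at *Grik4* but not between WT and *Trdn-as* KO at *Lrfn2*, where the difference did not pass the test across all peaks.

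Other starts of this kind were those of *Otos*, which encodes otospiralin of the inner ear, with a mean CTCF of 164.2, *Trpm5*, a channel of taste cells, with 114.8, *Gfap*, the intermediate filament of astrocytes, with 103.2, and *Mc1r*, the melanocortin receptor of pigment cells, with 92.5. *Mtnr1a*, a melatonin receptor, held 80.5 CTCF and 3.33 Pol II, the lowest Pol II of the 92 together with *Slc9a4*. *Drd1*, a dopamine receptor, held 78.5, *Scn3a*, a neuronal sodium channel, 74, *Edar*, the ectodysplasin receptor of hair and tooth development, 68.2, *Ntrk2*, the receptor of brain-derived neurotrophic factor, 52.5, and *Wnt1*, a patterning ligand of the midbrain, 51.3. *Ntrk2* and *Wnt1* lie near the CTCF threshold. Another peak with a mean Pol II of at least 20 was annotated to 7 of the 92 genes, with 640.5 at *Sp2*, a transcription factor, 184.8 at *Coq2*, an enzyme of coenzyme Q synthesis, 79.8 at *Il17b*, a cytokine, 52.3 at *Spaca7b*, 36.7 at *Ccdc177*, 30.5 at *Gm3336* and 26 at *Gm17482*.

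By mean CTCF value the leading members were at *Pak4* (chr7:28300389-28302112), *Ms4a10*, *Prph*, *Cstl1*, *Aqp6*, *Ccdc110*, *Plin1*, *Dnase1l3*, *Otos* and *Psd2*, from 187.5 down to 164.2. *Pak4*, a kinase of the actin cytoskeleton, held 205 and 176 for WT, 191 and 205 for *Trdn-as* KO, and 178 and 170 for *Mettl3* KO. *Prph*, the intermediate filament peripherin of peripheral neurons, held 196 and 163, 186 and 191, and 164 and 170. At both, the WT libraries alone spanned most of the range over genotypes. *Aqp6*, a water channel of the kidney, held 167 and 148 for WT, 184 and 202 for *Trdn-as* KO, and 164 and 176 for *Mettl3* KO. Longer peaks collect more reads, and per kb the order changed: *Aqp6* had 146.7, *Dnase1l3*, a secreted nuclease, 139.8, *Cstl1*, of the cystatin family, 133.3, and *Plin1*, the lipid droplet coat of adipocytes, 74.3. Pol II at these 10 members averaged between 10.7 and 19.7. Outside the members, 6 of the 10 genes had no other peak, and the other 4 had none with a mean Pol II above 11.8.

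Gene families from a list of 24 name patterns held 224 members, 19.7%, against 12.2% of all coding promoter peaks. The list was made with earlier results of these data known, so no test was run on it. As many of these families are silent in the heart, their promoter peaks with little Pol II are the nearer comparison: over all genes, 9.24% of the 12302 coding promoter peaks with little Pol II were members. The share by family ran from 26.2% for WNT, FGF, BMP and GDF ligands to 9.21% for orphan and adhesion G protein-coupled receptors among the 20 families with at least 3 members. Members of the classes with highest shares were few, and the shares carry the counting error of those counts.

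**Figure D3:**
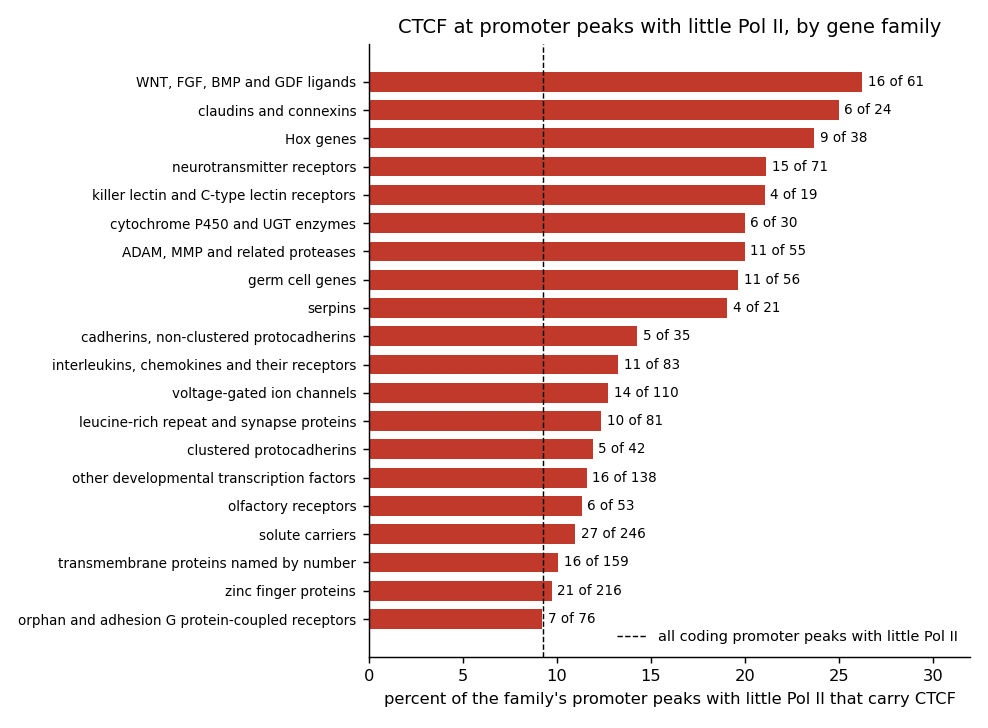
Percent of each family's coding promoter peaks with little Pol II that are members (bars, with the counts beside them) for the 20 families with at least 3 members, and the 9.24% of all such peaks as a dashed line. WNT, FGF, BMP and GDF ligands, claudins and connexins, Hox genes, neurotransmitter receptors and lectin receptors stand above 21%, and zinc finger proteins, numbered transmembrane proteins and orphan receptors lie within a point of the line.

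Families are described by role and not by share. Of the patterning genes, WNT, FGF, BMP and GDF ligands, the secreted growth factors of embryonic patterning, had 16 members at 14 genes, 15 of them upstream of the start and 1 over it. *Gdf7*, a ligand of dorsal spinal cord development, held a member 4846 nt upstream (chr12:8356235-8357364) with CTCF values of 127 and 131 for WT, 169 and 125 for *Trdn-as* KO, and 141 and 133 for *Mettl3* KO. *Wnt7b*, a ligand of lung and kidney development, held one 1060 nt upstream with 115 and 113, 123 and 137, and 122 and 123. Pol II averaged 7.17 and 9 at these members. At *Gdf7* a single *Trdn-as* KO library stood above the rest, and at *Wnt7b* both KO pairs stood above the WT pair without passing the test. Of the 16 members, 3 belonged to a gene with a Pol II peak elsewhere.

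Hox genes, the transcription factors of the body axis, had 9 members in all 4 clusters, at *Hoxa3*, *Hoxa13*, *Hoxb5*, *Hoxb6*, *Hoxb8*, *Hoxc4*, *Hoxc8*, *Hoxd4* and *Hoxd8*. This was 23.7% of their 38 promoter peaks with little Pol II. Mean CTCF ran from 53.8 at *Hoxb5*, the one over its start, to 97 at *Hoxd8*, and mean Pol II from 4.83 to 14.7. *Hoxd8* (chr2:74532176-74533364) held 117 and 89 for WT, 95 and 109 for *Trdn-as* KO, and 83 and 89 for *Mettl3* KO, and *Hoxd4* (chr2:74545649-74546703), in the same cluster, 106 and 92, 108 and 94, and 93 and 85. The WT libraries of *Hoxd8* were further apart than the genotype means. It was the 1 Hox gene of the 9 with another peak of at least 20 Pol II, centred near its start with a mean of 31.7. Of the other developmental transcription factors, 16 of 138 such peaks were members, none over the start. *Dlx3*, a homeodomain factor of skin and teeth, led with a mean of 127.2 CTCF 3067 nt upstream, and *Foxc1*, a forkhead factor of eye and vessel development, followed with 97 at 5054 nt upstream of a gene whose main peak had 352 Pol II.

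Among genes of neurons, neurotransmitter receptors had 15 members at 15 genes, 21.1% of their 71 promoter peaks with little Pol II, and none of these genes had a Pol II peak elsewhere. Besides *Grik4*, *Grin2c*, an NMDA receptor subunit, held 119 and 106 for WT, 119 and 127 for *Trdn-as* KO, and 115 and 117 for *Mettl3* KO at 3524 nt upstream. Voltage-gated ion channels had 14 members, 12.7% of 110. *Kcnc1*, a potassium channel of fast-spiking neurons, held 93.5 with no other peak above 2.83 Pol II.

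Clustered protocadherins, neuronal adhesion proteins with alternative promoters, many of which are known to bind CTCF, had 5 members of 42, all in the gamma cluster: *Pcdhgb7*, *Pcdhgb6*, *Pcdhga12*, *Pcdhga3* and *Pcdhga10*. Of these, 4 covered the start, which no other family reached. Their mean CTCF was low, from 50.8 to 71.5, and their mean Pol II high for members, from 12 to 19.8. *Pcdhgb7* held CTCF of 72 and 65 for WT, 74 and 85 for *Trdn-as* KO, and 65 and 68 for *Mettl3* KO, and *Pcdhgb6* 67 and 55, 71 and 78, and 56 and 59. A further 37 promoter peaks of the clusters had little of either factor. Leucine-rich repeat and synapse proteins had 10 members of 81, 3 over the start, and cadherins and non-clustered protocadherins 5 of 35, led by *Cdh23*, a cadherin of inner ear hair cells, with 80 CTCF and 4.17 Pol II at 751 nt upstream, and *Cdh11* with 71.3.

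Olfactory receptors had 6 members of 53, 11.3%, and none of these genes had Pol II elsewhere. *Or2i1* held 125 and 102 for WT, 102 and 128 for *Trdn-as* KO, and 101 and 96 for *Mettl3* KO with 7 Pol II, and *Or13j1* a mean of 89.5 with 16.5 Pol II. The mean over the 6 ran down to 50.8, and *Or51d1* was the one over its start. Vomeronasal, taste and trace amine receptors had no member among 10 peaks with little Pol II, and replication-dependent histone genes none among 27.

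Immune genes had members in 3 listed families. Interleukins, chemokines and their receptors had 11 of 83, 7 of them downstream of the start. *Il3*, a growth factor of blood progenitors made by T cells, held 134 and 93 for WT, 136 and 153 for *Trdn-as* KO, and 114 and 116 for *Mettl3* KO at 2652 nt downstream. The WT libraries of *Il3* differed by more than those of either KO genotype. *Il27ra*, a cytokine receptor chain, held a mean of 117.3 in a gene with another peak of 108.7 Pol II. Lectin receptors had 4 of 19, led by *Clec18a* with 93.5 and *Clec1b*, a platelet receptor, with 76.7. TNF ligands and receptors had 2 of 21, at *Tnfsf4* and *Tnfrsf21*.

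Among epithelial and secretory genes, claudins and connexins, the proteins of tight and gap junctions, had 6 of 24, 25%, at *Cldn11*, *Gjb2*, *Gja3*, *Gjd3*, *Cldn15* and *Cldn1*. *Cldn11* held a mean of 92 and *Gjb2* 75.5, with Pol II of 12.8 and 6.5. Keratins had 2 of 9. Proteases of the ADAM, MMP and kallikrein kind had 11 of 55, 20%, and *Adamts8* alone had 2 members, 5550 and 1919 nt upstream, with 138.7 and 106 CTCF. Cytochrome P450 and UDP glucuronosyltransferase enzymes, which modify drugs and steroids, had 6 of 30, with *Cyp2w1* at 92.3 and *Cyp2u1* at 88.3, the latter beside a peak of 229.7 Pol II. Serpins, protease inhibitors, had 4 of 21, led by *Serpina11* with 85.8 and *Serpinb1a* with 72.7.

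Of the broad families, solute carriers had 27 members of 246, 11%, led by *Slc52a3*, a riboflavin transporter, with 132.5 CTCF and *Slc7a7*, a cationic amino acid transporter subunit, with 109.5, and 16 of the 27 belonged to a gene with Pol II elsewhere. Zinc finger proteins had 21 of 216, 9.72%, none over the start and 15 at a gene with Pol II elsewhere, such as *Zfp930* with 106.7 CTCF at 2346 nt upstream of a start peak of 205 Pol II. Numbered transmembrane proteins had 16 of 159, with *Tmem161a* at 121.3 and *Tmem192* at 117, both more than 5000 nt upstream of genes with Pol II. Orphan and adhesion receptors had 7 of 76, all upstream, led by *Gpr3*, an orphan receptor of oocytes and brain, with 147, and *Adgrf1* with 106.3. Germ cell genes had 11 of 56, 19.6%, led by *Spata20*, over its start with 110.2, and *Tex44* with 104. These names group genes by symbol and not by measured function.

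Members were spread over all 19 autosomes. Their share of the coding promoter peaks ran from 3.38% on chromosome 10 to 5.31% on chromosome 16, with the highest number, 112, on chromosome 7. Only 93 members, 8.18%, had another member centred within 10000 nt.

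Members were set beside CTCF sites away from promoters. Of the autosomal peaks assigned to no gene, 6942 met the same thresholds. Their median CTCF per kb was 86.4 and that of members 84.4, their median Pol II per kb 8.93 against 10.6, and their median IgG per kb 23.6 against 24.3. The same thresholds chose both sets, so their CTCF and Pol II levels are given as a description, and IgG, which the rule did not use, overlapped in its quartiles. Coding promoter peaks with both factors had a lower CTCF per kb, 51.3, in peaks of a median 1668 nt against 930 nt for members, and a higher IgG per kb, 40.7.

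**Figure D4:**
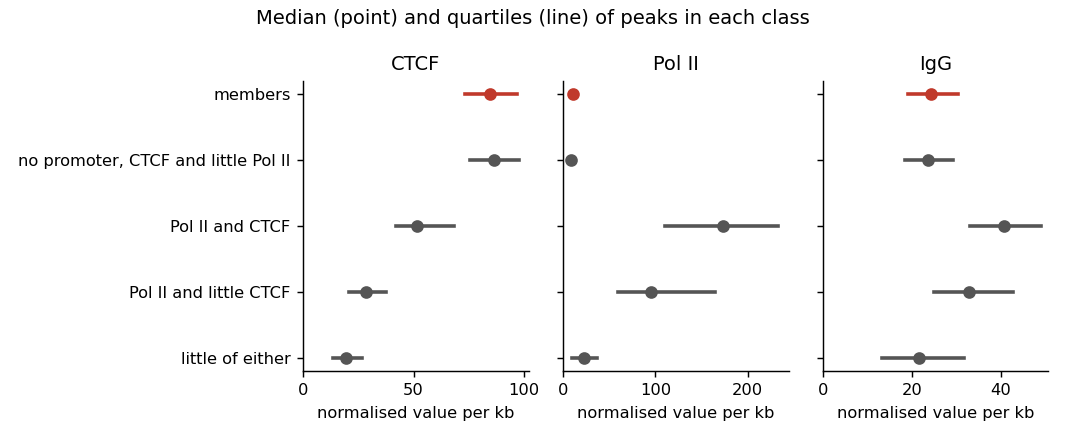
Median (point) and quartiles (line) of CTCF, Pol II and IgG as normalised value per kb of peak, for members (red), peaks at no promoter with the same thresholds and the other 3 classes of coding promoter peaks. CTCF and Pol II chose the classes, and on the IgG axis, which did not, members lie at 24.3 and the peaks at no promoter at 23.6.

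The genotype comparisons asked whether loss of *Trdn-as* transcription or of *Mettl3* in cardiomyocytes went with other CTCF or Pol II levels at these sites. They were made with limma on log2(value + 1) over all peaks with Benjamini-Hochberg adjustment, and both KO groups share the WT libraries. Since the *Trdn-as* KO libraries alone held 0 on chromosome Y, effects of this genotype and of the sex of the mice cannot be told apart in any comparison of *Trdn-as* KO with WT. For CTCF in *Trdn-as* KO, 6 of the 1137 members passed at an adjusted p of 0.05, against 0.587% of all 60649 peaks tested. This is 0.528% of members, near that background. Of the 6, 5 were higher (0.348% of all peaks were called higher) and 1 lower (0.239%). At each of the 6, the KO pair and the WT pair did not overlap, which follows largely from choosing them by p on these libraries and adds no support.

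The site with the largest difference was at the start of *Gm17349*, a predicted gene (chr15:99603338-99604239), where CTCF was 56 and 60 for WT against 94 and 104 for *Trdn-as* KO, a log2 fold change of 0.76 ± 0.11 (SE, adjusted p = 0.00136, limma). The *Mettl3* KO libraries, at 78 and 81, lay between. At *Zfp598*, a ubiquitin ligase of stalled ribosomes, a site 2118 nt upstream rose from 58 and 57 to 92 and 96 (0.70 ± 0.12, adjusted p = 0.00492, limma). *Zfp469*, a zinc finger gene of the cornea and connective tissue, had the one site that fell, 942 nt downstream of the start, from 114 and 108 to 76 and 77 (−0.53 ± 0.10, adjusted p = 0.0118, limma), with 115 and 115 in *Mettl3* KO.

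The other 3 rose by less. *Tulp3*, a trafficking factor of cilia, went from 85 and 80 to 121 and 123 at 3334 nt upstream (0.56 ± 0.11, adjusted p = 0.0128, limma), and *Robo3*, an axon guidance receptor, from 115 and 101 to 148 and 149 at 2466 nt downstream (0.46 ± 0.10, adjusted p = 0.0329, limma). *Mcur1* went from 95 and 67 to 120 and 127 (0.62 ± 0.13, adjusted p = 0.033, limma), with its WT libraries far apart: the log2 fold change was 0.37 without WT replicate 2 and 0.87 without WT replicate 1. In *Mettl3* KO, *Zfp598*, *Tulp3*, *Robo3* and *Mcur1* held 56 to 98. Pol II elsewhere in the gene was 311.8 at *Zfp598* and 186 at *Tulp3*, while outside the members *Robo3* had no other peak above 3.67 and *Zfp469* none. None of the 6 passed when any single WT or *Trdn-as* KO library was left out, nor without the filter on low values, without the variance trend or without the *Mettl3* KO libraries in the model.

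**Figure D5:**
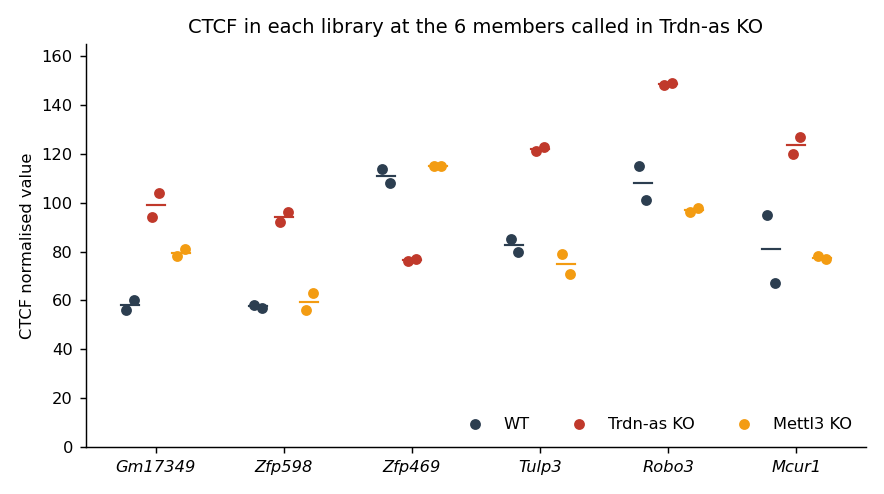
CTCF normalised value of each library (points) and group mean (lines) at the 6 members called in *Trdn-as* KO, for WT (dark), *Trdn-as* KO (red) and *Mettl3* KO (orange). The *Trdn-as* KO libraries stand above both other genotypes at 5 members and below them at *Zfp469*.

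Across members CTCF leaned to higher values in *Trdn-as* KO: the median log2 fold change was 0.11 with 85.7% above 0, against 0.04 and 57.1% over all peaks tested. CTCF peaks at no promoter gave 0.11 and 84.9%, and coding promoter peaks with both factors −0.002 and 49%. The lean moved with 1 WT library. The median was 0.04 with 60.2% above 0 without WT replicate 2, whose median member was the lowest of all CTCF libraries, and 0.19 without WT replicate 1. With autosomal sums equalised it was 0.07 with 74.8% above 0, against −0.003 and 49.3% over all peaks. For CTCF in *Mettl3* KO no member passed, against 0.185% of all peaks. An unadjusted p below 0.05 was held by 95 members, 8.36%, against 15.7% of all peaks. The median log2 fold change was −0.07 for members and −0.06 for all peaks, and for members it was 0.01 with 53.8% above 0 without WT replicate 1 and −0.15 with 20.3% above 0 without WT replicate 2. With autosomal sums equalised it was −0.02 for members and −0.01 for all peaks.

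Pol II could be tested at the 848 members with a value of at least 10 in 2 libraries, those with the most Pol II. None passed in *Trdn-as* KO, against 0.304% of 52655 peaks, and none in *Mettl3* KO, against 1.19%, with 39 and 42 members at an unadjusted p below 0.05 in limma. These were 4.6% of the tested members against 7.7% of all peaks, and 4.95% against 15.5%. The rule caps the mean over these same 6 Pol II libraries, so a peak with a large Pol II gain in a KO could be lost from the members. At these low read numbers small differences were not detectable. The 2 members called in *Mettl3* KO with autosomal sums equalised had log2 fold changes of −2.79 and −1.96. The counts therefore do not show that Pol II was unchanged at members. In *Trdn-as* KO the members' median log2 fold change was 0.12, where all peaks gave −0.07, and −0.12 in *Mettl3* KO, where all peaks gave 0.08 and coding promoter peaks with both factors 0.26. With autosomal sums equalised, the *Mettl3* KO median was −0.28 for members and −0.08 for all peaks, and without *Mettl3* KO replicate 2 it was 0.00 for members and 0.14 for all peaks, with 49.9% and 59.8% above 0. The Pol II library with the highest median member, *Trdn-as* KO replicate 2, was also the one with the fewest estimated reads in peaks, 1987610, and its part in the *Trdn-as* KO median was not tested beyond leaving it out, which gave 0.08 for members and for all peaks.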

How the data were processed

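The authors used Trimmomatic 0.39 for trimming, STAR 2.7.11b for alignment to GRCm39 and Picard 3.1.1 for removing duplicates. They discarded reads that were spliced, mapped to several places or came from ribosomal or mitochondrial DNA. Peaks were called by MACS, merged outside blacklisted regions, and counted by featureCounts. The deposited score of a peak is its read count normalised by the authors with DESeq2 1.36.0 in a matrix of all antibodies and rounded to a whole number, so levels cannot be compared between antibodies. The 15 columns of single libraries were used. Input libraries, 3 in number, were left aside.

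The design planned a count test. As the values are normalised, its stated alternative was used: limma 3.58.1 in R 4.3.3 on log2(value + 1), with a variance trend, over all peaks that reached 10 in 2 or more of a target's 6 libraries, in a model of the 3 genotypes without a replicate block. The adjusted p threshold was 0.05, and the script was tested on simulated data. A fold change on this scale understates the change of low values. The value of 1 read was found by fitting how often each whole number occurs, since some are skipped or hit by several read numbers. It was not estimated for CTCF, where the fit was unreliable. Intervals were not given for shares of peaks.

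Members, gene families, markers and the rule for named genes were chosen with earlier results of these data known. Named were the 10 members of highest mean CTCF, the 2 highest of each family with at least 3, members called in a comparison, those next to a threshold, the 5 whose gene had the highest Pol II at another peak, and members at marker genes. Some genes that met the rule are not reported here. Genes outside this rule are the 92 over the start and members listed to complete a small family, which were named after their values were seen. The peak coordinates are GRCm39 and the sequences are RefSeq GRCm38.p6 promoter windows, matched by symbol. Alternatives covered scaling, filter, pseudocount, groups in the model, replicate block, variance trend, single libraries left out and the thresholds of the rule.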

Additional observations from a re-analysis of the deposited data

How the results depend on the processing

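The 6 members called for CTCF in *Trdn-as* KO were called again with autosomal sums equalised (8 called in all, the 6 among them), a pseudocount of 5 (6) and, chosen after seeing the data, autosomal peaks alone (6). The count was 0 without a filter, with only the 2 genotypes in the model, without a variance trend and without any single library, where a lone sample is assumed to vary like the other groups. All 6 kept their direction in all 12 alternatives. Replicate numbers are shared between groups but did not pair the samples: deviations of replicate 1 correlated between −0.01 and 0.006 between groups, and at −0.238 between *Trdn-as* KO and WT for CTCF. With the number as a block, 2 members (*Gm17349* and *Zfp598*) were called for CTCF in *Trdn-as* KO, 0 for CTCF in *Mettl3* KO, 0 for Pol II in *Trdn-as* KO and 2 for Pol II in *Mettl3* KO. With crossed numbers, an alternative chosen after seeing the data, 10 were called for CTCF in *Trdn-as* KO. For CTCF in *Mettl3* KO, 1 member, at *Gm17349*, was called with equalised sums and 0 in the other alternatives. For Pol II in *Mettl3* KO, equalised sums called 2, at *Pomk* and *Tpd52l1*, both lower. For Pol II in *Trdn-as* KO the count lay between 0 and 4 when a library was left out, the 4 being called lower without *Trdn-as* KO replicate 1, where 2185 of all peaks were called. Over all peaks, calls for CTCF in *Trdn-as* KO fell from 356 to between 1 and 5 without a library. The cause was not tested.

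The number of members was 544 with a mean Pol II below 10, 203 with a mean CTCF of at least 100 and 717 with a length under 1000 nt. The share of member genes with Pol II at another peak was 41.4% at a threshold of 50. Family shares were recomputed as percent of members, not of the family's peaks with little Pol II, and 31 of 48 stayed within their 95% exact binomial interval. With CTCF of at least 100, the share was 0 for clustered protocadherins (0.440% of all members), Hox genes (0.792%), keratins, lectin receptors, TNF genes, P450 enzymes, serpins, cadherins, and claudins and connexins. It fell from 1.41% to 0.493% for developmental transcription factors, from 1.23% to 0.493% for ion channels and from 1.85% to 0.985% for zinc finger proteins, and rose from 0.616% to 1.48% for orphan and adhesion receptors and from 0.968% to 2.46% for interleukins and chemokines. With Pol II below 10 it was 0 for clustered protocadherins, rose to 2.39% for developmental transcription factors and fell from 0.880% to 0.184% for leucine-rich repeat and synapse proteins.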
